A study of Mus musculus with 884 samples.

Results

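Replication was followed through S phase in the S-phase cells of day 7 (d7) among 884 single mouse cells profiled by single-cell Repli-seq. There were 177 such cells in the present series and 42 more that had been deposited in a previous one. In this assay a cell is sorted by DNA content, its genome is amplified and sequenced, and its read density tells along the chromosomes which DNA had already been copied. The d7 cells were chosen by their titles, as every d7 cell sorted from S phase, whatever the gate. They came from CBMS1, a female embryonic stem cell line with one CBA and one MsM genome. The line was taken for 2 days to epiblast-like cells and then for 5 days through floating aggregates in plain GK15 medium without added factors, a protocol towards neurectoderm. The assay reads DNA and no expression, so the neurectoderm label rests on the protocol and could not be checked against markers. The cells compared with d7 were 165 S-phase cells of the undifferentiated line in 2i/LIF (d0), 64 of d6 of the same course, and 74 female epiblast stem cells (EpiSCs) of strain C57BL6 at passage p5 in Activin/FGF medium. State and strain cannot be told apart in the EpiSC comparison. No label named separate cultures, so each state counted as 1 sample, no test was run, and spreads and intervals are over cells.

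Mammalian genomes replicate in a set order. Large domains fire their origins together, early domains being mostly gene-rich, open chromatin and late domains mostly gene-poor chromatin at the nuclear lamina. The order is redrawn as stem cells differentiate, and in female cells the inactive X chromosome becomes late-replicating as a whole.

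Position in S phase was read from the replication score, the share of autosomal 80 kb bins with a call (30890 bins in all) in which the cell was replicated. The d7 scores ran from 0.0401 to 99.98%, with a median of 60.08%. Each range of 10 points held 6 to 38 cells, the fewest from 20 to 30% and the most from 50 to 70%. The 22 G1 cells of d7 scored 0 to 7.16%, a range that 13 of the S-gated cells fell into. A d7 cell had a median of 29652 bins called (range 22443 to 29866).

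The sorting gates ordered the cells loosely. Scores averaged 28.8% ± 19.7 (SD over 35 cells) in the 25perS gate, 26.5% ± 20.9 (12 cells) in 35perS, 40.6% ± 18.3 (12) in 45perS and 70.4% ± 21.03 (23) in 50perS. They averaged 68.9% ± 14.2 (12) in 55perS, 78.8% ± 9.61 (12) in 65perS, 79.5% ± 13.5 (33) in 75perS and 62.5% ± 18.9 (80) in MidS. The 50perS mean was above the 55perS mean by less than either spread, and 8 of 35 25perS cells scored above the lowest 75perS cell. Cells were therefore ordered by score and not by gate.

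Some cells stood apart. Of the 189 cells with scores of 5 to 95%, 7 ranked the bins of the mean d7 profile with an area under the curve (AUC) below 0.8, down to 0.477, and are called low-AUC cells here. In 1 of them, MidS replicate 57 (score 70.7%), 13 chromosomes were called replicated in at least 95% of their bins and the other 6 in at most 5%. In 75perS replicate 21 (83.1%) these counts were 16 and 2. Of the authors' deposited filters, those other than the one on the score marked 34 d7 cells, 4 of them within scores of 5 to 95%, and all 4 were low-AUC cells. Results that rest on such cells are given with and without them.

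The cells also differed in their G1 control, the merged G1 cells that the authors used to correct mappability. A set of 119 cells was corrected with one day 7 control and included all 42 cells already deposited in a previous series. Another 72 cells, 12 from each of the 6 gates from 25perS to 75perS other than 50perS, were corrected with a day 6 control. The other cells, 10 and 18 of the MidS gate, had other day 7 controls. Within scores of 5 to 95%, 100 and 63 cells of the first and second sets remained, and they are called the day 7 control set and the day 6 control set.

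For each bin a logistic curve of the call against the score gave a midpoint, the score at which the bin was replicated in 50% of the cells. The fit used the 189 cells with scores of 5 to 95% and gave midpoints for 29700 bins. The quartiles of the midpoints were 28.4, 49.8 and 72.4, an even spread that the score, itself a share of the same bins, imposes in every state. Early bins (midpoint under 40) numbered 11434, or 914.7 Mb and 38.5% of the fitted autosomes. Middle bins (40 to 60) numbered 6817 (22.95%) and late bins (above 60) 11449 (38.5%). A midpoint had a median 95% profile interval of 8 points, for counting error only.

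The 3 classes filled one after another. In the 8 cells with scores of 10 to 20%, 37.5% ± 7.89 of the early bins were replicated (SD over cells), with 2.64% ± 1.83 of the middle and 0.862% ± 1.33 of the late bins. In the 25 cells with scores of 40 to 50%, the early bins were at 88.9% ± 7.32, the middle bins at 38.03% ± 6.10 and the late bins at 5.35% ± 4.84. In the 25 cells with scores of 70 to 80% they stood at 98.3% ± 5.27, 93.002% ± 6.53 and 40.2% ± 8.59. These levels follow in part from the score itself, since the classes were cut from the same cells. The spread around them was set by few cells. At scores of 50 to 60% the early bins were at 96.6% in the median cell and at 53.8% in the lowest, and the late bins at 10.6% in the median cell and 60.5% in the highest.

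**Figure D1:**
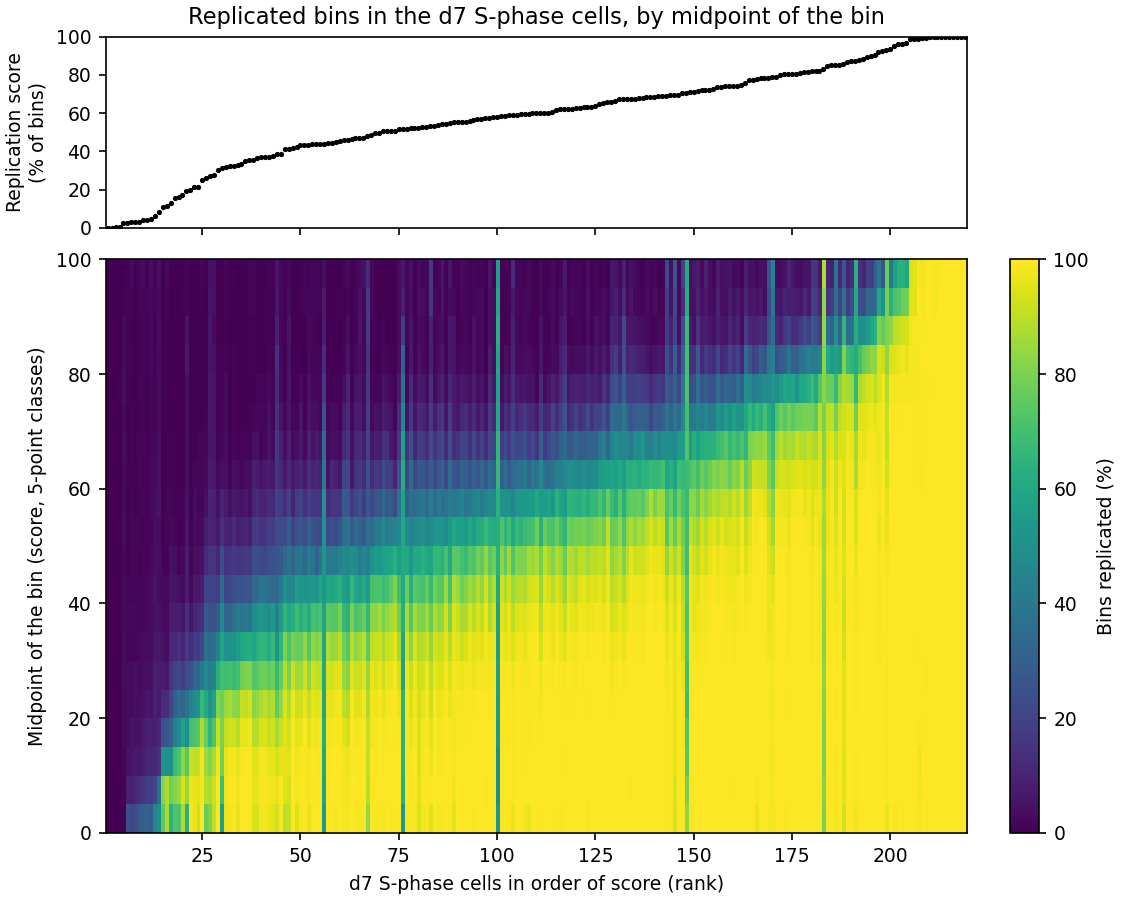
The lower panel shows the share of bins replicated (colour) in each d7 S-phase cell, in order of score, for bins in 5-point classes of midpoint; the upper panel gives the score of each cell. The border between replicated and unreplicated bins climbs through all classes, and single cells of mixed colour from top to bottom are low-AUC cells.

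The longest stretches that replicated first were on chromosomes 4, 11, 17 and 2. Coordinates are of the mm9 build, and the gene tables at hand are of another build, so no gene is named on them. The longest run of bins with midpoints of 20 or less was on chromosome 4 from 131280001 to 139840000 (8560 kb). It was replicated, in over 50% of its called bins, in 8 of 22 cells with scores under 20%, in 23 of 23 from 20 to 40%, in 60 of 63 from 40 to 60% and in 63 of 63 from 60 to 80%. Chromosome 11 held 2 of the 5 longest such runs. The one from 114400001 to 121040000 (6640 kb) was replicated in 10 of 22 cells with scores under 20% and in every cell with a score of 20% or more (23, 63, 63 and 48 cells by 20-point range). The other, from 74320001 to 80400000 (6080 kb), was replicated in 8 of 22 and then 23 of 23 cells. Chromosome 17 from 23680001 to 30160000 (6480 kb) and chromosome 2 from 28160001 to 33840000 (5680 kb) were replicated in 9 and 8 of 22 cells under 20%. In all, 491 runs had midpoints of 20 or less, 294 of them at least 400 kb long.

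All 5 of these runs had also mean midpoints under 12 at d0, d6 and in EpiSCs. Chromosome 17 from 23680001 to 30160000 had a mean midpoint of 4.79 at d7, 10.3 at d6, 3.74 in EpiSCs and 2.83 at d0. Midpoints this low lie where few cells were sampled, and the fit was bounded at -10.

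The longest late stretches lay on chromosomes 15, 14, 5 and 3. Chromosome 15 from 14320001 to 24240000 (9920 kb, mean midpoint 97.6) was replicated in 0 of 23 cells with scores of 20 to 40%, which allows a share of up to 13.04%. It was replicated in 1 of 63 cells from 40 to 60%, in 2 of 63 from 60 to 80% and in 21 of 48 above 80% (43.8%, 29.5 to 58.8%, exact Clopper-Pearson 95% interval). Of the cells above 80%, 18 scored above 95%, with nearly all called bins replicated. Counts above 80% therefore depend in part on how many nearly finished cells were sorted. Chromosome 14 held 2 of the 5, from 88240001 to 97120000 (8880 kb) and from 107120001 to 114080000 (6960 kb), replicated in 22 and 20 of 48 cells above 80%. Chromosome 5 from 55200001 to 63280000 (8080 kb) was replicated in 24 of 48 such cells and chromosome 3 from 42000001 to 48560000 (6560 kb) in 27 of 48. There were 206 runs with midpoints of 85 or more, 137 of them at least 400 kb long. The chromosome 15 stretch came earlier in EpiSCs, with a mean midpoint of 83.3, against 94.2 at d6 and 100.4 at d0.

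Autosomes differed in their place in S phase. Chromosome 11 had the lowest median midpoint at d7 (31.4), with 59.7% of its bins early and 19.7% late. Chromosome 3 had the highest (62.2), with 21.98% early and 53.3% late. Chromosomes 19 (40.9) and 9 (40.9) followed chromosome 11 within a point of each other, and chromosomes 16 (58.1), 14 (57.2) and 1 (56.5) came next below chromosome 3. Chromosome 11 lay at 29.4 at d0, 32.995 at d6 and 29.5 in EpiSCs and was the lowest there too. Chromosome 3 lay at 62.1, 62.9 and 61.4, the highest at d0 and d6, while in EpiSCs chromosome 16 was higher (62.1). From present-series d7 cells alone chromosome 11 was at 30.9 and chromosome 3 at 61.8.

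Timing domains, runs of adjacent bins of 1 class, were long at both ends of S phase and short in the middle. Short middle domains follow in part from the class borders. The middle class covers fewer points of score, and a change from early to late mostly passes through it. With borders of 33 and 67, 944 middle domains held 11513 bins, against 949 and 6817 with the borders used here. There were 534 early domains with a median length of 1040 kb (quartiles 480 and 2240 kb) and 443 late domains with a median of 1200 kb (560 and 2720 kb). Domains over 2000 kb numbered 146 early and 148 late, and held 66.8% of the early and 73.9% of the late length. The longest early domain was on chromosome 4 from 128080001 to 143040000 (14960 kb) and the longest late one on chromosome 14 from 80720001 to 97920000 (17200 kb). The 949 middle domains had a median of 400 kb. Of these, 543 lay between an early and a late domain (median 320 kb), 251 between early domains on both sides (480 kb) and 143 between late domains on both sides (480 kb).

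The other states had more and shorter domains under the same classes, with 689 early domains at d6 (median 720 kb), 665 in EpiSCs (880 kb) and 652 at d0 (880 kb). The d6 and EpiSC midpoints rest on 52 and 63 cells, with median intervals of 14 and 12 points against 8 at d7. Noise in midpoints breaks runs, and the part of cell number in these differences was not tested. The d0 midpoints rest on 157 cells, with an interval of 7 points.

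Within single cells, replicated stretches first multiplied and then joined. In the 8 cells scoring 10 to 20%, the median number of replicated runs was 624, with a median length of 400 kb. The number of runs was highest, at a median of 705.5 (474 to 967), in the 6 cells from 20 to 30%. It was 570 (165 to 778) in the 38 cells from 50 to 60% and 270.5 (36 to 634) in the 24 cells from 80 to 90%. The median length of a replicated run rose from 400 kb at scores of 10 to 20% to 800 kb at 30 to 40%, 1280 kb at 50 to 60%, 2480 kb at 70 to 80% and 4340 kb at 80 to 90%. The median length of an unreplicated run changed little meanwhile, at 1200, 1200, 1040, 960 and 1040 kb in these ranges. Long unreplicated runs shortened, however. In the median cell the mean length went from 3087 kb at 10 to 20% to 1629 kb at 80 to 90%. The longest unreplicated run went from 37520 to 9600 kb. The median number of unreplicated runs went from 655 at 10 to 20% to 252.5 at 80 to 90%.

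**Figure D2:**
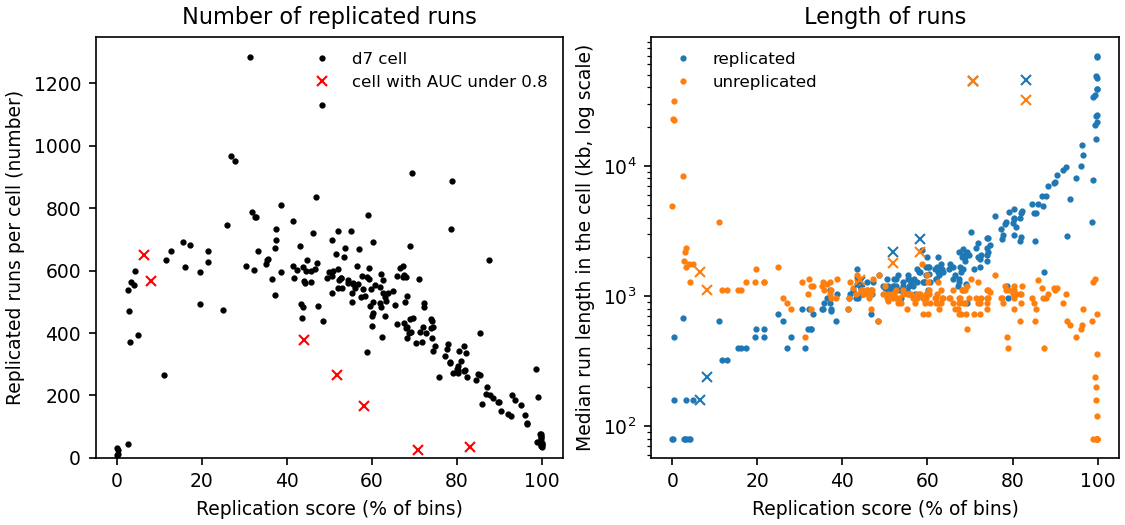
Each point is a d7 S-phase cell, with its replication score on the x axis; the left panel gives its number of replicated runs and the right panel, on a log axis, the median length in kb of its replicated and unreplicated runs. Crosses are low-AUC cells with scores of 5 to 95%. Replicated runs lengthen with the score while unreplicated runs have medians of 960 to 1200 kb from 10 to 90%.

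At scores of 40 to 60% the 63 d7 cells had 580.8 ± 129 replicated runs (SD over cells), against 661.4 ± 69.2 in 14 d6 cells, 708.1 ± 57.03 in 11 EpiSCs and 747.02 ± 154 in 41 d0 cells. The median length was 1257 kb ± 325 at d7 and 1023 kb ± 217 at d0. The ranges overlapped in all 4 states, with 165 to 1132 runs at d7, 546 to 822 at d6, 650 to 834 in EpiSCs and 549 to 1300 at d0. Without low-AUC cells the d7 mean was 596.4 runs.

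The score range over which a bin passed from 25 to 75% of cells replicated, its span, measures how closely cells keep to one order. Over the 25277 bins with midpoints of 10 to 90, the d7 span had a median of 16.4 points (quartiles 13.3 and 19.6). Early bins had a median of 15.6, middle bins 17.5 and late bins 15.8. By 10-point class of midpoint, the median was lowest at midpoints of 10 to 20 (12.9) and highest at 50 to 60 (17.9). Bins on steep stretches of the timing profile had wider spans. In the quartile of bins with the smallest slope (median 0.351 points per bin) the median span was 15.05 points, and in the quartile with the largest (4.97 points per bin) it was 18.2. Without departing chromosomes (described below) and low-AUC cells these values were 13.4 and 16.6, and the median over all bins was 14.7.

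Among 715 runs of at least 5 bins with midpoints of 30 to 70, the mean span ranged from 8.22 to 54.9 points, with a median of 17.7. The 3 widest lay within 8080 kb of each other on chromosome 6. Chromosome 6 from 70640001 to 72000000 (mean midpoint 44.5, mean span 54.9) was replicated in 8 of 23 cells with scores of 20 to 40%, in 50 of 61 from 60 to 80% and in 39 of 47 above 80%. At scores of 40 to 60% it was replicated in over 80% of its called bins in 24 of 62 cells, in under 20% in 15, and in between in 23. Chromosome 6 from 72960001 to 73520000 (mean span 50.7) was replicated in 9 of 23 cells from 20 to 40% and 46 of 60 from 60 to 80%. Chromosome 6 from 65440001 to 67360000 (44.4) was replicated in 5 of 21 and 40 of 63. At d6 these 3 runs had mean spans of 59.3, 37.3 and 67.4 points, while in EpiSCs they had 10.5, 12.7 and 15.3 and at d0 14.6, 15.7 and 14.4. The d7 cells of these runs differed by series. In the day 7 control set at scores of 40 to 60%, the run from 72960001 was replicated in 4 of 21 previous-series and 10 of 15 present-series cells, with spans of 16.7 and 46.4 within each. The run from 65440001 was replicated in 1 of 21 and 8 of 15, with spans of 24.2 and 64.2.

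The other 2 of the 5 widest runs differed between the control sets. Chromosome 3 from 152240001 to 153360000 (mean span 37.3) was replicated, at scores of 40 to 60%, in 6 of 13 cells of the day 6 control set (46.2%, 19.2 to 74.9%) and in 34 of 35 of the day 7 control set (97.1%, 85.1 to 99.9%). Within the sets its mean midpoints were 57.1 and 33.4, and d6 cells, corrected with the same day 6 control, had 51.9. Its mean spans within the sets were 55.9 and 16.6, so it was also wide in the day 6 control set alone. Chromosome 4 from 144240001 to 144880000 (40.9) was replicated in 0 of 14 cells of the day 6 control set, which allows up to 21.4%, and in 18 of 36 of the day 7 control set (50%, 32.9 to 67.1%). Its mean span within the sets was 25.2 and 35.4, and its mean midpoints were 73.5 and 51.9, with 57.8 in d6 cells. Within the day 7 control set this chromosome 4 run was replicated in 7 of 21 previous-series and 11 of 15 present-series cells at those scores. Its spans there were 84.2 and 27.2. On chromosome 6 from 70640001 the spans within the sets were 66.7 and 40.3, so that run was wide in each. Within the day 7 control set it was replicated in 9 of 21 previous-series and 12 of 15 present-series cells at scores of 40 to 60%, with spans of 30.5 and 39.6. The part of the control, of the culture and of the sorting in these differences was not tested.

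The 3 narrowest runs had mean midpoints of 34.9, 36.7 and 36.7. Chromosome 5 from 106480001 to 106960000 (mean span 8.22, mean midpoint 34.9) was replicated in 0 of 21 cells with scores under 20%, which allows up to 14.3%, in 8 of 23 from 20 to 40% and in 61 of 63 from 40 to 60%. Chromosome 15 from 101280001 to 101680000 (8.49) was replicated in 0 of 22, 5 of 23 and 58 of 63 cells, and chromosome 14 from 56640001 to 57280000 (8.98) in 1 of 22, 5 of 23 and 57 of 63. The first of them had a mean midpoint of 51.9 at d0 and 21.3 in EpiSCs.

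Part of the spread between d7 cells came as whole chromosomes. For each cell and autosome, the share of the chromosome replicated minus that of the other autosomes was set against the 20 cells nearest in score. A chromosome 15 points or more from their median is called departing. At d7, 36 of 189 cells had a departing chromosome (19.05%, 13.7 to 25.4%). The numbers were 6 of 52 at d6 (11.5%, 4.35 to 23.4%), 11 of 157 at d0 (7.01%, 3.55 to 12.2%) and 0 of 63 in EpiSCs, which allows up to 4.76%. Over all cells, the SD of this departure had a median over chromosomes of 7.35 points at d7, 4.2001 at d6, 3.21 at d0 and 2.85 in EpiSCs.

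In 29 of the 36 cells, 1 or 2 chromosomes departed, and in 5 cells 13 or more did. The latter were the low-AUC cells with the largest disorder. The 29 cells held 36 cases, 30 of them ahead of the rest of the cell and 6 behind. Chromosome 12 accounted for 14, chromosome 8 for 9 and chromosome 18 for 4. The other 9 cases lay on other autosomes. In MidS replicate 13, with a score of 19.52%, chromosome 18 was replicated in 88.9% of its bins. In MidS replicate 11 (26.9%) chromosome 8 stood at 85.3%, in MidS replicate 76 (27.8%) chromosome 12 at 78.8% and in MidS replicate 77 (53.1%) chromosome 1 at 94.1%. The opposite occurred on chromosome 8 in 45perS replicate 1 (52.2%), where 5.25% of its bins were replicated, and in 75perS replicate 11 (85.9%), where 6.79% were. The other autosomes of these cells stayed within 15 points of their neighbours in score, except chromosome 12 in 45perS replicate 1, which was ahead by 15.3 points.

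**Figure D3:**
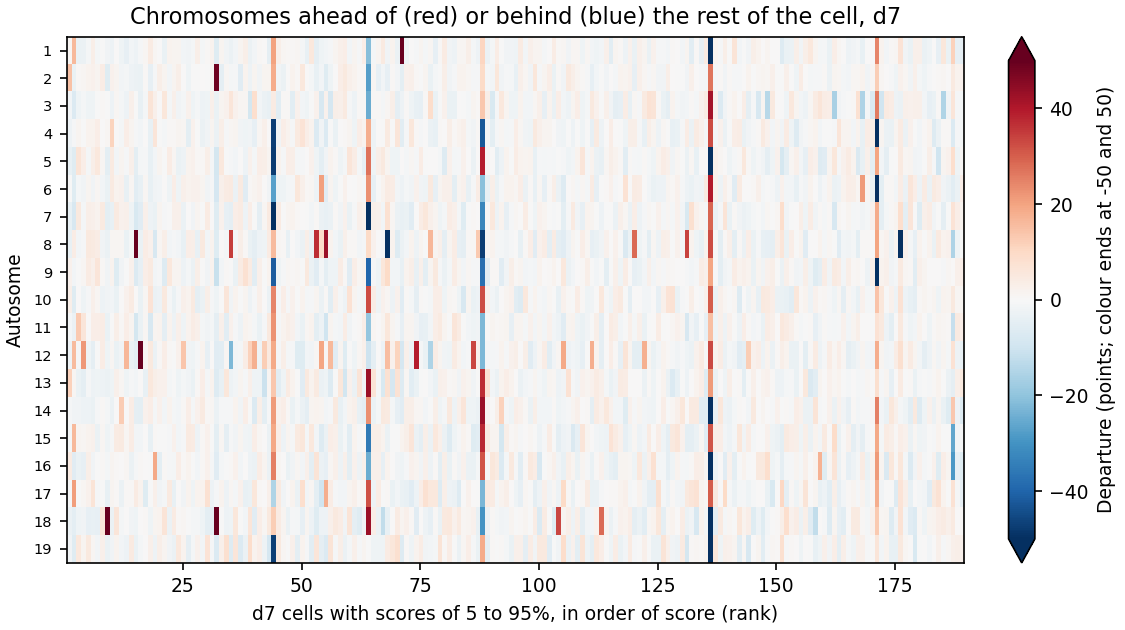
Departure of each autosome (rows) in each of the 189 d7 cells with scores of 5 to 95% (columns, in order of score), in points of the share replicated, red for ahead and blue for behind the cells nearest in score. Isolated coloured cells on chromosomes 8, 12 and 18 are single departing chromosomes, and the 5 columns coloured throughout are low-AUC cells.

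Departing chromosomes occurred in each control set, in 13 of 63 cells of the day 6 control set, 17 of 100 of the day 7 control set and 6 of the other 26. They occurred in 7 of 42 previous-series cells (16.7%) and 29 of 147 present-series cells (19.7%). Chromosome 12 departed in 0 previous-series and 19 present-series cells, chromosome 8 in 3 and 11, and chromosome 18 in 4 and 3. At d0 any departing chromosome was found in 4 of 126 previous-series cells (3.17%) and 7 of 31 present-series cells (22.6%), so d7 was above d0 among the former and not among the latter. The calls derive from read density against a G1 control, in which an extra or missing copy of a chromosome would also appear as replicated or unreplicated. Copy number was not measured here, and its part was not tested. Chromosomes called replicated were also seen in 4 of 22 d7 G1 cells, at over 30% of their bins.

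Pairs of d7 cells within 5 points of score were compared bin by bin. Near the ends of S phase most bins share a call whatever the order, so the levels are not comparable across score ranges. Of their bins, a median of 86.3% had the same call at scores of 5 to 20% (26 pairs), 81.2% from 20 to 40% (143), 81.7% from 40 to 60% (998), 84.3% from 60 to 80% (1019) and 88.6% from 80 to 95% (255). Without low-AUC cells and cells with departing chromosomes, the median from 40 to 60% was 82.9% and the lowest pair rose from 46.9 to 74.6%. In the same cells of the other states the 40 to 60% medians were 82.8% at d6, 84.3% in EpiSCs and 85.4% at d0.

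Measured cell by cell, a median of 11.2% of the called bins were out of order at d7, that is, replicated before or unreplicated after the midpoint fitted from the other cells. Cells ranged from 4.75 to 50.5%. The share was largest from 20 to 40% (median 13.1%, 23 cells) and smallest from 80 to 95% (7.19%, 30 cells). As with the pairs, these levels are not comparable across score ranges. Over all these scores the median share was 11.1% at d6, 10.7% in EpiSCs and 8.94% at d0. The 5 most disordered cells were 35perS replicate 12 (50.5%), 25perS replicate 2 (39.9%), MidS replicate 57 (39.1%), MidS replicate 61 (36.6%) and 75perS replicate 21 (27.3%). Of these, 4 had been marked by the authors' filters, all but 25perS replicate 2. Without low-AUC cells and cells with departing chromosomes the median was 10.9% at d7, with a maximum of 19.7%, and 8.81% at d0.

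The d7 spans were set against those of the other states. Over all cells with scores of 5 to 95% the median span was 16.4 points at d7, 13.5 at d0, 13.1 at d6 and 13.2 in EpiSCs. Since the states differ in the number and scores of their cells, d7 cells were also matched in score to the other state, with departing chromosomes and low-AUC cells left out on both sides. Against 154 d0 cells the d7 span was then 14.98 and the d0 span 11.75 points, and 71.6% of bins were wider at d7. Against 52 d6 cells the values were 14.9 and 12.8 (58.9% of bins wider), and against 59 EpiSCs 13.6 and 12.97 (54.8%).

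The d0 difference kept its direction within control sets, and the others did not. With cells of 1 control on each side, the d7 span was 12.1 in the day 6 control set and 13.3 in the day 7 control set against 9.96 at d0 (58 cells each). The match in score was not exact, with mean scores of 60.3 and 57.6% at d7 and 54.8% at d0. Against d6, with 52 cells each, it was 12.2 and 13.4 beside 12.8, at mean scores of 55.9 and 52.8% beside 49.05%. Against EpiSCs, with 59 cells each, it was 11.996 and 13.6 beside 12.97, at mean scores of 59.4 and 55.3% beside 52.05%. The day 6 control set and the EpiSCs were equal in number of cells and were not matched in score. The part of these score differences was not tested. The day 6 control set was thus narrower than d6 and EpiSCs and the day 7 control set wider. The difference from d0 was smaller in other sets. Without matching, the day 7 control set exceeded d0 by 1.29 points, and in previous-series MidS cells d7 exceeded d0 by 0.769 points, less than the SD of the difference over autosomes (1.10).

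**Figure D4:**
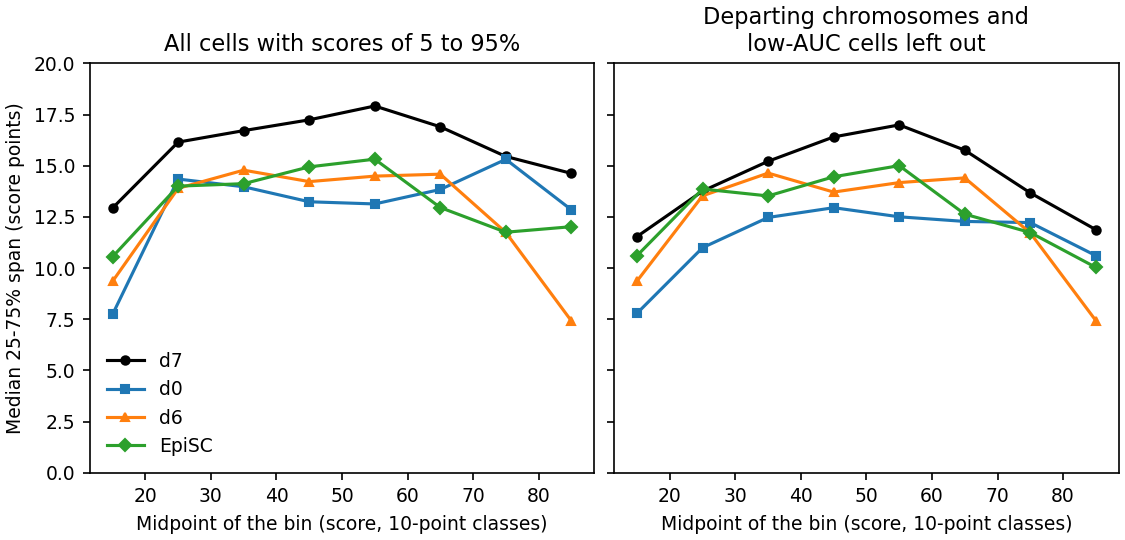
Median span from 25 to 75% of cells replicated, in score points, for bins in 10-point classes of midpoint in the 4 states, over all cells with scores of 5 to 95% (left) and without departing chromosomes and low-AUC cells (right). The d7 line peaks at 17.9 points for midpoints of 50 to 60 on the left and 16.99 on the right, and lies above d0 in each class of the right panel.

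The runs of at least 5 bins that kept their midpoint within 10 points of d0 but widened by 10 points or more numbered 71. The 4 with the largest difference in span lay at the bounds of the fit, so their cells are given in place of midpoints. Chromosome 6 from 72400001 to 72800000, between the wide runs above, was replicated in 7 of 17 d7 cells under 20%, 16 of 22 from 20 to 40%, 46 of 59 from 40 to 60% and 48 of 56 from 60 to 80%. Chromosome 4 from 113200001 to 113600000 differed between the control sets, with mean midpoints of -3.89 (day 6) and 97.8 (day 7), outside the fitted scores. In d6 cells, corrected with the same day 6 control, the mean midpoint was 103.5. At scores of 40 to 60% it was replicated in 9 of 11 cells of the day 6 control set (81.8%, 48.2 to 97.7%) and in 1 of 32 of the day 7 control set (3.13%, 0.0791 to 16.2%). Chromosome 4 from 151280001 to 151680000 and chromosome 11 from 120160001 to 120720000 were replicated in 9 and 14 of 22 cells under 20% and in 58 and 59 of 63 from 40 to 60%.

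Midpoints were compared between d7 and its nearest day. Relative to d6, 809 of 29698 bins (2.72%) were earlier at d7 by 15 points or more and 1358 (4.57%) were later. They formed 29 earlier and 55 later regions of at least 5 bins, with median lengths of 560 and 480 kb. Intervals of the midpoints were apart in 210 of the earlier and 518 of the later bins. The same measure between the d7 control sets gave larger numbers. Relative to the day 7 control set, 1647 bins (5.56%) of the day 6 control set were earlier and 3044 (10.3%) later, with intervals apart in 986 and 886. The day 6 control set against d6, both corrected with that control, gave 1069 and 1593 bins, with intervals apart in 257 and 405. Within the day 7 control set, 42 previous-series cells against 58 present-series cells gave 2382 (8.02%) and 3852 (12.98%) bins. More bins thus passed 15 points between these sets of d7 cells than between d7 and d6. Counting only bins with intervals apart, in both directions together, there were 728 between d7 and d6, 1872 between the control sets and 710 between the series, so only the control sets exceeded d6 by that count. Smaller sets give wider intervals, and the part of cell number and of score range was not tested.

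The largest shifts from d6 were near the ends of S phase. The 4 regions with the largest later shift were chromosome 12 from 22640001 to 23520000, chromosome 2 from 176800001 to 177680000, chromosome 12 from 18400001 to 20720000 and chromosome 14 from 7120001 to 8000000, with mean shifts of 38.8, 35.9, 34.1 and 33.99 points. Their mean midpoints moved from 68.4, 66.4, 69.1 and 69.8 at d6 to 107.2, 102.2, 103.2 and 103.8 at d7, near the bound of 110. In the day 6 control set alone they lay at 110, 107.8, 98.97 and 110, above d6 under the same control. In the day 7 control set they lay at 97.7, 84.8, 93.6 and 80.3, so the chromosome 2 and chromosome 14 regions were much nearer to d6 there, the latter within 15 points. In the day 6 control set the first and last rest on few cells, with calls in 4 and 5 cells at scores of 40 to 60%. Both chromosome 12 regions had been earlier still at d0, at 37.96 and 42.1. So had the chromosome 2 region, at -2.93, outside the fitted scores and with a mean span of 60.6 points. The chromosome 14 region lay at 101.1 at d0. The 4 largest earlier shifts were chromosome 17 from 24400001 to 24880000 (-29.7 points), chromosome 12 from 47040001 to 47840000 (-24.7), chromosome 6 from 105920001 to 106400000 (-22.7) and chromosome 2 from 41360001 to 41760000 (-22.6). The last 3 were late on both days, with midpoints of 84.4, 85.5 and 84.8 at d7. Their d6 midpoints of 109.1, 108.3 and 107.4 lay near the bound of 110. The chromosome 17 region moved from 20.2 at d6 to -9.51 at d7, near the bound of -10. The sizes of all 4 earlier shifts therefore rest on midpoints outside the fitted scores of 5 to 95%. In each control set alone these 4 regions were also earlier than at d6.

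Relative to EpiSCs, 2485 of 29697 bins (8.37%) were earlier at d7 and 3674 (12.4%) later, in 167 and 226 regions. Of the later bins, 1862 were late at d7 and 1073 early. Chromosome 2 from 54640001 to 55840000 had a mean midpoint of 45.4 in EpiSCs and of 85.5 at d7, 84.7 at d6 and 82.1 at d0. Chromosome 6 held a pair of long later regions. The one from 121840001 to 124240000 (2400 kb) moved from 25.2 in EpiSCs to 63.1, with 54 at d6 and 36.5 at d0, and the one from 128640001 to 129680000 from 28.1 to 66.8. Chromosome 7 from 15760001 to 16400000 moved from 57.6 to 97.9. In both control sets these 4 stayed later than in EpiSCs, with midpoints of 84.99, 59.1, 66.8 and 107.6 in the day 6 control set and 87.0, 66.2, 65.7 and 90.2 in the day 7 control set, in the order given.

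Earlier shifts from EpiSCs were largest in 4 regions. On chromosome 10, 69920001 to 71040000 went from 63.2 to 31.6. On chromosome 6, 103120001 to 103760000 went from 103.3 to 73.5. On chromosome 14, 104080001 to 104640000 went from 64.7 to 35.1 and 22800001 to 24160000 from 60.8 to 32.4. The last region had a midpoint of 68.05 at d0, against 32.5 at d6. Chromosome 10 from 69920001 was earlier than in EpiSCs at d0 (37.6), d6 (34.3) and d7 alike. Against d0, 4620 of 29684 bins (15.6%) were earlier and 5016 (16.9%) later, in 304 and 359 regions. Intervals were apart in 3819 and 3351 of them. In the day 6 and day 7 control sets the earlier counts against d0 were 5333 and 5456 and the later counts 5856 and 4573.

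Both ends of S phase were sampled thinly. The 17 cells with scores under 15% had a median score of 3.32%, and 254 of 29573 bins were replicated in at least 50% of them. The longest run of these was on chromosome 4 from 140800001 to 141360000 (560 kb), replicated in 11 of 17 cells and part of the longest early domain. A pair of 560 kb runs on chromosome 12, from 81520001 and from 85840001, followed with 8 of 16 cells each. Of the 35 cells above 85%, with a median score of 96.1%, at least 50% were unreplicated at 230 bins. The longest run there was chromosome 16 from 81200001 to 82720000 (1520 kb), unreplicated in 20 of 35 cells, followed by chromosome 16 from 60880001 to 62080000 (19 of 35) and chromosome 1 from 114800001 to 115920000 (18 of 35). An AUC below 0.8 was found in 12 of the 17 and 12 of the 35 cells, 10 and 12 of which lay outside scores of 5 to 95% and are not among the 7 low-AUC cells above. Without these cells 1757 first bins and 1819 last bins were counted, in 5 and 23 cells.

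Chromosome X was read allele by allele in 36 d7 cells, 18 of them of the previous series, with scores of 41.4 to 68.8%. The submitters named the active (Xa) and inactive (Xi) copy from replication timing, so their difference is given without a test. Xa was replicated in 36.03% ± 8.41 (SD over cells) of its 400 kb windows, ranging from 19.3 to 58.6%. Xi was replicated in 5.55% ± 6.52, from 0.935 to 22.4%. Both lay below the autosomal score in all 36 cells, Xa by a median of 19.9 points and Xi by 49.1. At d0, where both X chromosomes are active, the CBA and MsM copies of 33 cells stood at 43.5% ± 7.04 and 44.1% ± 7.10. These copies also lay below the autosomal score in all 33 cells, by medians of 15.1 and 14.1 points. The median score was 56.6% in these d0 cells and 58.1% in the 36 d7 cells. The Xi was the CBA copy in 33 of the 36 d7 cells and the MsM copy in 3.

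Xi had windows called replicated in every cell, in some of them only 0.935%. That is no more than the 1% of calls taken as wrong in the autosomal fit. The Xi share differed most between cells near a score of 60%. In the 11 cells from 40 to 50% Xi was at 0.935 to 3.12% and in the 14 cells from 60 to 70% at 0.935 to 22.4%, while the Xa medians were 28.1 and 41.99%. Above 59.7%, 8 cells had an Xi share of 13.4 to 22.4% and 7 cells had 0.935 to 4.98%, with no cell between. Of the 8 cells, 7 were of the previous series, and of the 7 cells 2 were, so the groups went largely with the series. On Xa 62 of 331 windows were replicated in at least 80% of cells, on Xi none of 321. The windows most often replicated on Xi were X from 100400001 to 100800000 and from 100800001 to 101200000, each in 28 of 36 cells, against 33 and 30 of 36 on Xa.

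**Figure D5:**
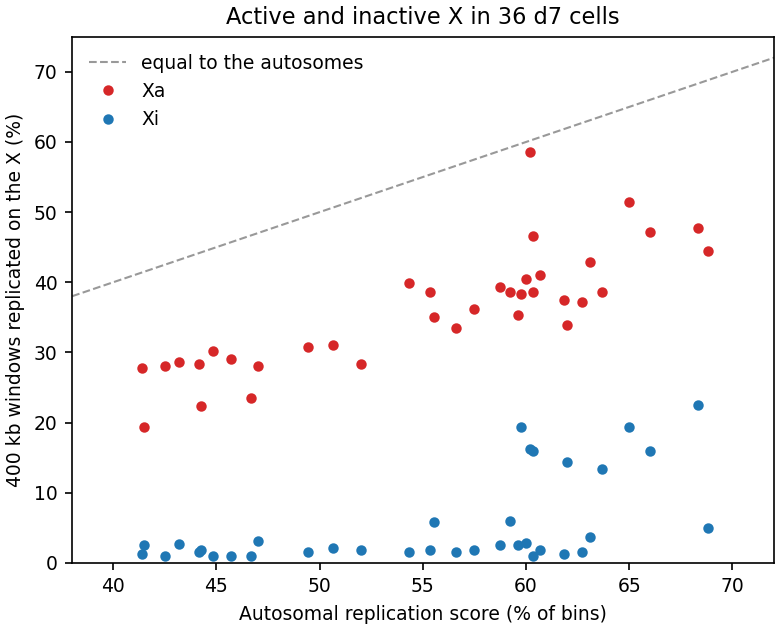
Share of 400 kb windows replicated on Xa (red) and Xi (blue), in percent, against the autosomal replication score of each of 36 d7 cells; the dashed line marks a share equal to that score. All points lie below the line, and near a score of 60% the Xi points separate into a group at 13.4 to 22.4% and a group at or under 5.92%.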

How the data were processed

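Single cells were sorted by DNA content, amplified with SeqPlex and sequenced, per the labels' protocols; the submitters' processing notes name BWA 0.7.10-r789, Picard, cutadapt and the mm9 build, with no order. A merged G1 control served the authors to correct mappability, per the file headers, and the deposited calls per 80 kb bin are coded 1 for replicated, -1 for unreplicated and 0 for no data. The deposited replication score is a fraction, multiplied here by 100; recomputed from the calls the largest difference was 4.97e-08 points. Depth in reads is not analysed here; the number of bins called is given instead. The calls of 313 other cells in the same table were not used here.

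Midpoints and spans came from a maximum-likelihood logistic fit with 1% of calls taken as wrong, over cells with scores of 5 to 95% and bins called in at least 50% of them, tested on simulated data. Runs passed over up to 5 bins without a call. Intervals and floors (3 counts) cover counting error only. Named regions were the 5 longest runs with midpoints of 20 or less and of 85 or more, the 5 widest and 3 narrowest middle runs, the 4 largest shifts each way from d6 and EpiSCs, the 4 largest span differences from d0, and the 5 most disordered cells. The members and lists were chosen with earlier results of these data known. Planned gene lists were not used here, since no mm9 annotation was at hand. Alternatives covered score range, wrong calls, filters, origin of cells, gates, matching and class borders; those on departing chromosomes and controls were chosen after seeing the data. Python 3.11.15, numpy 2.4.6, pandas 2.3.3, scipy 1.17.1 and matplotlib 3.10.9 were used.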

Additional observations from a re-analysis of the deposited data

Results flagged for a closer look

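In 4 G1 cells of d7, which take no part in the comparisons above, a chromosome was called replicated far above the rest of the cell. Chromosome 15 was called replicated in 98.01% of its bins in G1 replicate 21, chromosome 18 in 44.1% in replicate 7, chromosome 8 in 41.98% in replicate 9 and chromosome 12 in 32.99% in replicate 10. The next highest chromosome of these cells stood at 0.406, 2.59, 0.412 and 14.3%. Among the 16 d0 G1 cells 1 was alike, with chromosome 12 at 78.6%, and none of the 7 d6 and 4 EpiSC G1 cells was. Copy number was not measured here and its part was not tested.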

How the results depend on the processing

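Of 217 values under alternatives, over 34 results, 176 stayed within the spread or within 1.5 times the count, 39 moved and 2 turned direction. The spread was the SD over autosomes of the median or of the difference of medians, or the SD over cells or pairs of cells. For the midpoints of chromosomes 11 and 3 it was 4 points, taken from the width of the midpoint intervals. The cause was not tested unless named. The median d7 span of 16.4 points became 15.3 with all S-phase cells, 12.8 and 18.3 with 5 and 0.1% of calls taken as wrong, 14.8 without the MidS gate, 15.1 without low-AUC cells, 15.3 without cells marked by the deposited filters, 14.7 without departing chromosomes and low-AUC cells, 14.8 in the day 7 control set and 32.7 when measured from 10 to 90%. Middle bins numbered 11513 with borders of 33 and 67.

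The span difference of d7 from d0 (2.86) was 1.29 in the day 7 control set and 0.769 in previous-series MidS cells. That from d6 (3.32) was 1.91 without departing chromosomes and low-AUC cells and 1.74 in the day 7 control set. That from EpiSCs (3.18) was 2.13 without low-AUC cells, 1.77 without departing chromosomes too, 1.61 in the day 7 control set, 1.14 when matched in score and 0.658 when matched without departing chromosomes and low-AUC cells. With 1 control in each group the same was left out, and the match in score was not exact. Between the day 6 control set and EpiSCs, equal in number of cells, no match was made. There d7 minus d6 was -0.669 in the day 6 control set and 0.576 in the day 7 control set. The values of d7 minus EpiSC were -0.973 and 0.669.

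With shifts of 10 and 20 points, 2310 and 235 bins were earlier than d6, 2887 and 496 later, 5077 and 1040 earlier than EpiSCs, 6378 and 1925 later, and 7349 and 2660 earlier than d0. Later than d0 by 20 points were 2999. In the day 7 control set 2395 bins were earlier than d6. First bins numbered 1 and last bins 0 at 80% of cells, and 1757 and 1819 without low-AUC cells; above 90% there were 8 last bins. With 10 nearest cells, 1 EpiSC had a departing chromosome. With 17 and 35 cells at the ends of S phase, midpoints under 10 and above 90 are the least certain.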
